A study of Mus musculus with 3 samples.

Results

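The replication-dependent histone genes encode the H1 linker histones and the H2A, H2B, H3 and H4 core histones that package newly made DNA. They were examined here as 4 stretches of the mouse genome (build mm9) on a tiling array of methylated DNA from frontal cortex. The stretches were defined by genome position. Their tiled regions span chr13:21793658-22136043 (called the proximal group here, as it lies nearer the start of the chromosome), chr13:23621704-23874594 (the distal group), chr3:96022606-96099215 and chr11:58761284-58777501. They held 880 of the 409597 placed probes. Probes whose starts lay at most 500 bp apart were joined into tiled regions of at least 3 probes, which gave 46 regions of 28880 on the whole array: 16 in the proximal group, 21 in the distal group, 6 on chromosome 3 and 3 on chromosome 11. The 41 regions at chr13:22175356-23581880, which separate the proximal from the distal group, served as the comparison.

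All samples belonged to 1 group, naive C57BL/6 males, 2 months old, with no treatment, transgene or second genotype. DNA of 3 mice was pooled for each of 3 arrays. From 2 µg of sonicated DNA, fragments carrying 5-methylcytosine were pulled down with 10 µg of an antibody described as blind to hydroxymethylated DNA, and both the pulled-down (bound) and the input DNA were amplified across the genome before labelling. Input carried the Cy3 dye and bound DNA the Cy5 dye on every array, so that a dye effect cannot be told apart from enrichment. The titles number the arrays as replicates 1 to 3, whereas the descriptions give replicate 1 to each. The titles were followed, and if arrays shared a pool, errors and p-values would cover technical spread. Genomic DNA carries no transcripts, so the tissue label could not be checked against markers.

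Replication-dependent histone genes are transcribed mainly in S phase, in nuclear bodies that form around the clusters, and their messages end in a stem-loop instead of a poly(A) tail. Most neurons of adult cortex have left the cell cycle and draw on replacement histone variants made from genes elsewhere in the genome. In mammals, promoters with many CpG sites are usually free of methylation, whereas scattered CpGs between genes are usually methylated.

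In the RefSeq annotation of build GRCm38.p6 the families hold 69 genes, 3 of them pseudogenes, on the chromosomes concerned. Chromosome 13 carries 56, with genes of all 5 families, chromosome 3 carries 10 and chromosome 11 carries 3. No RefSeq coordinate was set against the mm9 probe positions, and no tiled region could be given a gene name. By gene order, 147 genes lie between H2bc11, an H2B gene, and H4c8, an H4 gene, which face each other across the interval. Of these, 75 are Vmn1r genes for vomeronasal receptors, which detect pheromones, and 46 are tRNA genes. The histone stretches are not purely histone. From H2bc13 to H2bc11 another 40 genes stand among the histone genes, 31 of them tRNA genes and 3 protein coding, and from H4c8 to H1f1 there are 5.

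Promoter sequences were at hand for 61 of the 69 genes, from RefSeq (GRCm38.p6, 250 bases before to 50 after the start). They are shown because the series concerns methylation at start sites and the TATA-binding protein. Printed are the 120 bases before the start, read 5′ to 3′ on the gene's own strand, of the first gene by position in each family on chromosome 13, and of the first on chromosomes 3 and 11, that holds TATAAA 45 to 20 bases before the start. Capitals mark TATAAA in that window, CCAAT, and ATTGG, which is CCAAT on the other strand. The first gene encodes an H1 linker histone, and the next 4 encode H2A, H2B, H3 and H4. The last 2 encode H2A on chromosome 3 and H2B on chromosome 11.
H1f5: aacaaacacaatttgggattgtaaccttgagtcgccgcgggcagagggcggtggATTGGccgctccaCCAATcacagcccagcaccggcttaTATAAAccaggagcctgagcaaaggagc
H2ac22: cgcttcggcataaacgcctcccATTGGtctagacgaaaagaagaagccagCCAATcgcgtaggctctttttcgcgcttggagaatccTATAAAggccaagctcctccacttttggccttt
H2bc8: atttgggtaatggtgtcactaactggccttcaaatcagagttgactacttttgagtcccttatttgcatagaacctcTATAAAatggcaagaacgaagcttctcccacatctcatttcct
H3c10: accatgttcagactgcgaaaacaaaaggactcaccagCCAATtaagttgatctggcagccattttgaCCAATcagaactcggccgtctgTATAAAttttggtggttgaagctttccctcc
H4c4: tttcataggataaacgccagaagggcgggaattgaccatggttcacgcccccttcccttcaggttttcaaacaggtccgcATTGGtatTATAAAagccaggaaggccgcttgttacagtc
H2ac21: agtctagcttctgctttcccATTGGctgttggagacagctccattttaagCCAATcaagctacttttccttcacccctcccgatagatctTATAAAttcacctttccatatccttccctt
H2bu2: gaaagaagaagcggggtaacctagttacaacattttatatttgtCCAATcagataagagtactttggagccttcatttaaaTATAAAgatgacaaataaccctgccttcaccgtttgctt
H1f5 lies at chr13:21780626-21780745 on the minus strand and H2ac22 at chr13:21787249-21787368 on the minus strand. The others are on the plus strand: H2bc8 at chr13:23571280-23571399, H3c10 at chr13:21717508-21717627, H4c4 at chr13:23581448-23581567, H2ac21 at chr3:96219765-96219884 and H2bu2 at chr11:58948791-58948910. These GRCm38.p6 positions cannot be compared with the mm9 positions of the probes.

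TATAAA on the gene's strand stood 45 to 20 bases before the start in 15 of the 61 histone promoters (24.6%), against 2.28% of all 27025 promoters in the table. CCAAT on either strand, anywhere in the 300 bases, was present in 51 (83.6%), against 34.5% of all. It occurred in all 6 H1, all 18 H2A and all 16 H2B promoters, in 8 of 10 H3 promoters and in 3 of 11 H4 promoters. The histone promoters held a median of 11 CG dinucleotides in 300 bases (quartiles 8 and 16), and all promoters a median of 7 (quartiles 3 and 21). A match is a description of the letters and not of a binding site.

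Each value is the log2 ratio of bound to input processed signal minus the median probe of its array, so that 0 is the median probe and not an unmethylated reference. The more methylated CpGs a fragment holds, the better it is pulled down, and a low value can come from few CpGs or from little methylation, which cannot be told apart here. Errors are SDs over the 3 arrays. Signals near background carry a substitute value set by the scanner software, so a low region whose bound signal lay below background is given with a limited ratio that tends to understate the depletion. Probe values correlated between arrays at r = 0.73 to 0.77 over the whole array, and the 46 region values at 0.89 to 0.96, which describe features of the genome and not replicates. The number of arrays limits the precision of every value.

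Most histone regions held less methylated DNA in the bound fraction than the median probe. The 46 regions averaged -0.99, -0.75 and -0.77 on replicates 1, 2 and 3, a mean of -0.84 ± 0.13 (SD, n = 3) or 1.78-fold below the median probe. All 28880 regions averaged -0.05 ± 0.02, with a median region at -0.11, and the median histone region stood at -1.01. In limma's test of each region against 0, with Benjamini-Hochberg adjustment over all regions, 38 of the 46 were lower (82.6%), whereas 38.1% of all regions were lower. Only 4 were higher, against 28.0% of all regions, and 4 were not called. At least 2-fold lower were 23 of the 46 (50.0%), against 8.12% of all regions. This count depends on the background correction: with normexp 0 of the 46 were (60 of all 28880 regions), the mean being -0.30. Still called lower with normexp were 35 of the 46 (76.1%), against 36.4% of all regions. The 38 lower regions ran from -1.86 to -0.30 and had the same sign on every array.

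**Figure D1:**
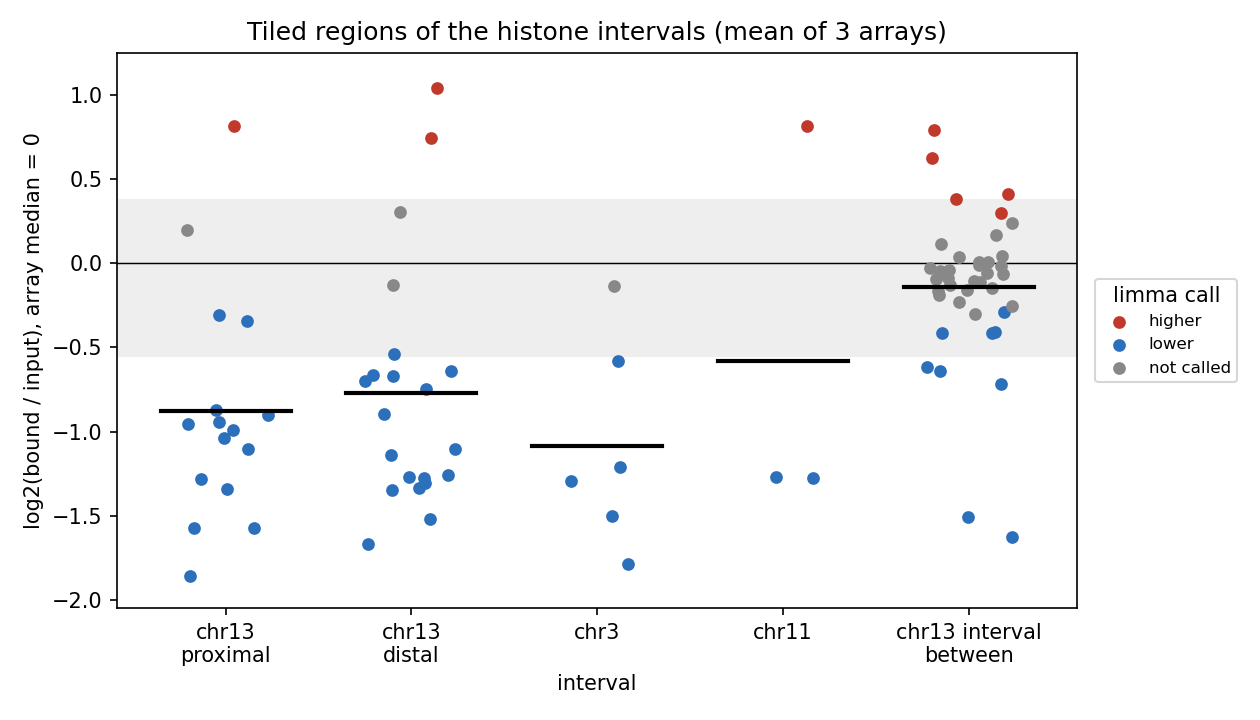
Log2 ratio of bound over input DNA for each tiled region (points, mean of 3 arrays), by interval, coloured by limma's call at an adjusted p of 0.05. Black bars are interval means, and the grey band spans the quartiles of all 28880 regions, from -0.55 to 0.37. Most histone regions lie under the band, and the interval between the chromosome 13 groups mostly lies inside it.

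The mean lay below 0 in each of the 4 groups. The proximal group averaged -0.995, -0.81 and -0.83 on the 3 arrays (-0.88 ± 0.10), with 14 of 16 regions lower and 1 higher. In the distal group the arrays gave -0.998, -0.65 and -0.66 (-0.77 ± 0.20), and 17 of 21 regions were lower and 2 higher. Replicate 1 was the lowest array in both. Chromosome 3 gave -1.12, -1.004 and -1.13 (-1.08 ± 0.07), with 5 of 6 regions lower and none higher. On chromosome 11 the mean of -0.58 ± 0.02, with arrays at -0.59, -0.58 and -0.56, joined 2 low regions with 1 high one.

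The means of the 4 groups lay within 0.51 of each other. The exact permutation test used here (two-sided, by flipping the signs of the 3 arrays) cannot give a p below 0.25, and 12 differences were computed, with an adjusted p of 0.27 for all but 1. The proximal and distal groups differed by -0.11 ± 0.10, with opposite signs among arrays (0.0033, -0.17 and -0.17, exact permutation p = 0.5, adjusted 0.5), and the sign turned with other filters. Chromosome 3 lay below chromosome 11 by 0.42 to 0.57 on every array (-0.51 ± 0.08, exact p = 0.25). The proximal group lay above chromosome 3 by 0.21 ± 0.09 and below chromosome 11, the difference being -0.30 ± 0.09, both with exact p = 0.25. For the distal group the differences were 0.32 ± 0.18 from chromosome 3 and -0.19 ± 0.19 from chromosome 11 (exact p = 0.25 each). The latter was carried mostly by replicate 1 (-0.40, -0.07 and -0.10) and stood at -0.084 without it. The difference from chromosome 3 turned to -0.13 over probes with input above background on all arrays, so the order of the groups is not settled.

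The interval between the chromosome 13 groups was near the array's middle. Its 41 regions averaged -0.22, -0.06 and -0.14 (-0.14 ± 0.08), with 9 lower, 5 higher and 27 not called. In the log2 ratio, all 4 histone groups together lay below the interval by 0.76, 0.68 and 0.63 on the 3 arrays (-0.69 ± 0.07, exact permutation p = 0.25, the smallest possible). The difference was -0.74 ± 0.04 for the proximal group, -0.63 ± 0.13 for the distal group, -0.94 ± 0.05 for chromosome 3 and -0.44 ± 0.07 for chromosome 11. Each had the same sign on every array, but chromosome 11 turned to 0.091 with the authors' deposited log2 values.
With the interval's mean as the zero, 36 of the 46 histone regions were lower (29.6% of all regions were) and 6 were higher (34.0% of all regions were).

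Detection of DNA differed between the 2 sides of that comparison. Input DNA was well above background in 70.2% of the pooled measurements of the histone regions, in 52.4% in the interval and in 73.9% over all regions. Bound DNA was above background in 34.2%, 34.0% and 54.8%. The histone groups differed in this: bound DNA was above background in 34.6% (proximal), 26.8% (distal), 47.3% (chromosome 3) and 54.8% (chromosome 11). Their input was above background in 71.4%, 63.6%, 82.1% and 83.0%. The interval was thus dim in both channels, and its part in the difference was not tested. Mean log2 bound signal was 7.96 in the histone regions, 7.87 in the interval and 8.90 over all regions. Mean log2 input was 8.95, 8.16 and 9.11. Against the interval, the pooled histone regions thus had brighter input and no less bound signal. Of the groups only the distal one had less, at 7.65. Against all regions, the pooled histone regions had similar input and less bound signal. Over only those probes whose input was above background on all arrays, the interval averaged -0.42 (35 regions left) and the histone regions -1.30, and the difference grew to -0.88. Lower calls rose over the whole array too. With this filter 47.9% of all regions were lower, against 38.1% without it, and 19.3% at least 2-fold lower, against 8.12%. The growth is thus not a measure of deeper depletion. With both channels required, which leaves out the most depleted probes, the interval stood at 0.15 (21 regions) and the histone regions at -0.59 (30 regions), a difference of -0.74. Of those 30 histone regions 21 were lower and 8 were higher, while 22.7% of all regions left by this filter were lower and 51.6% higher.

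**Figure D2:**
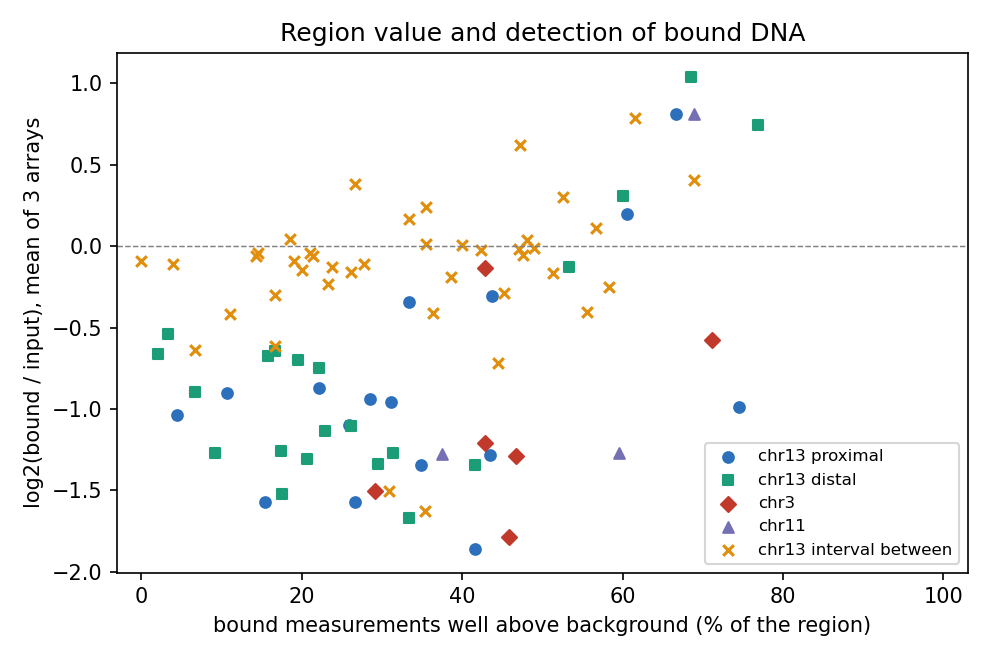
Region value (log2 ratio of bound over input, mean of 3 arrays) against the share of its bound measurements well above background, in percent, for the 4 histone groups and the interval between. The 38 lower histone regions had from 2.08% to 74.5% of their bound measurements above background, and the 4 higher ones 66.7% to 76.9%.

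Region values are means of single probes, so the same direction among probes is not separate evidence. Lower than 0 in limma's test over 409559 probes (adjusted p under 0.05) were 435 of the 880 histone probes (49.4%), whereas 23.56% of all probes were lower. Higher were 74 (8.41%), against 22.41% of all. By group, 51.9% of probes were lower in the proximal group, 46.1% in the distal group, 56.9% on chromosome 3 and 37.8% on chromosome 11, and 15.5% in the interval. Of the 435 lower probes, 207 had bound DNA below background on every array and so have only a limit, and 28 of the 74 higher ones were dim in input and bound DNA alike, where a ratio is not a measure of enrichment. Over all probes these counts were 35545 of 96477 lower and 14227 of 91802 higher, smaller shares than among the histone probes. Probes of 1 region share sonicated fragments and are not independent.

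Low regions followed one another over long distances. In the proximal group 12 consecutive regions of 16 were lower, spread over 266 kb at chr13:21807114-22073512. In the distal group 11 of 21 were, spread over 155 kb at chr13:23621704-23776983. The DNA between tiled regions was not assessed, so a run counts regions and is not an unbroken low stretch. The proximal run includes regions near the threshold, chr13:21878180-21880285 (-0.34, limma adjusted p = 0.022) and chr13:22071919-22073512 (-0.30, limma adjusted p = 0.049). On chromosome 3 the first 5 of 6 regions were lower over 51.3 kb. The longest such run in the interval was 3 of 41 regions, at chr13:23460666-23542705 toward the distal group, with means from -1.63 to -0.72. These runs were sought after the values were seen and carry no test.

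**Figure D3:**
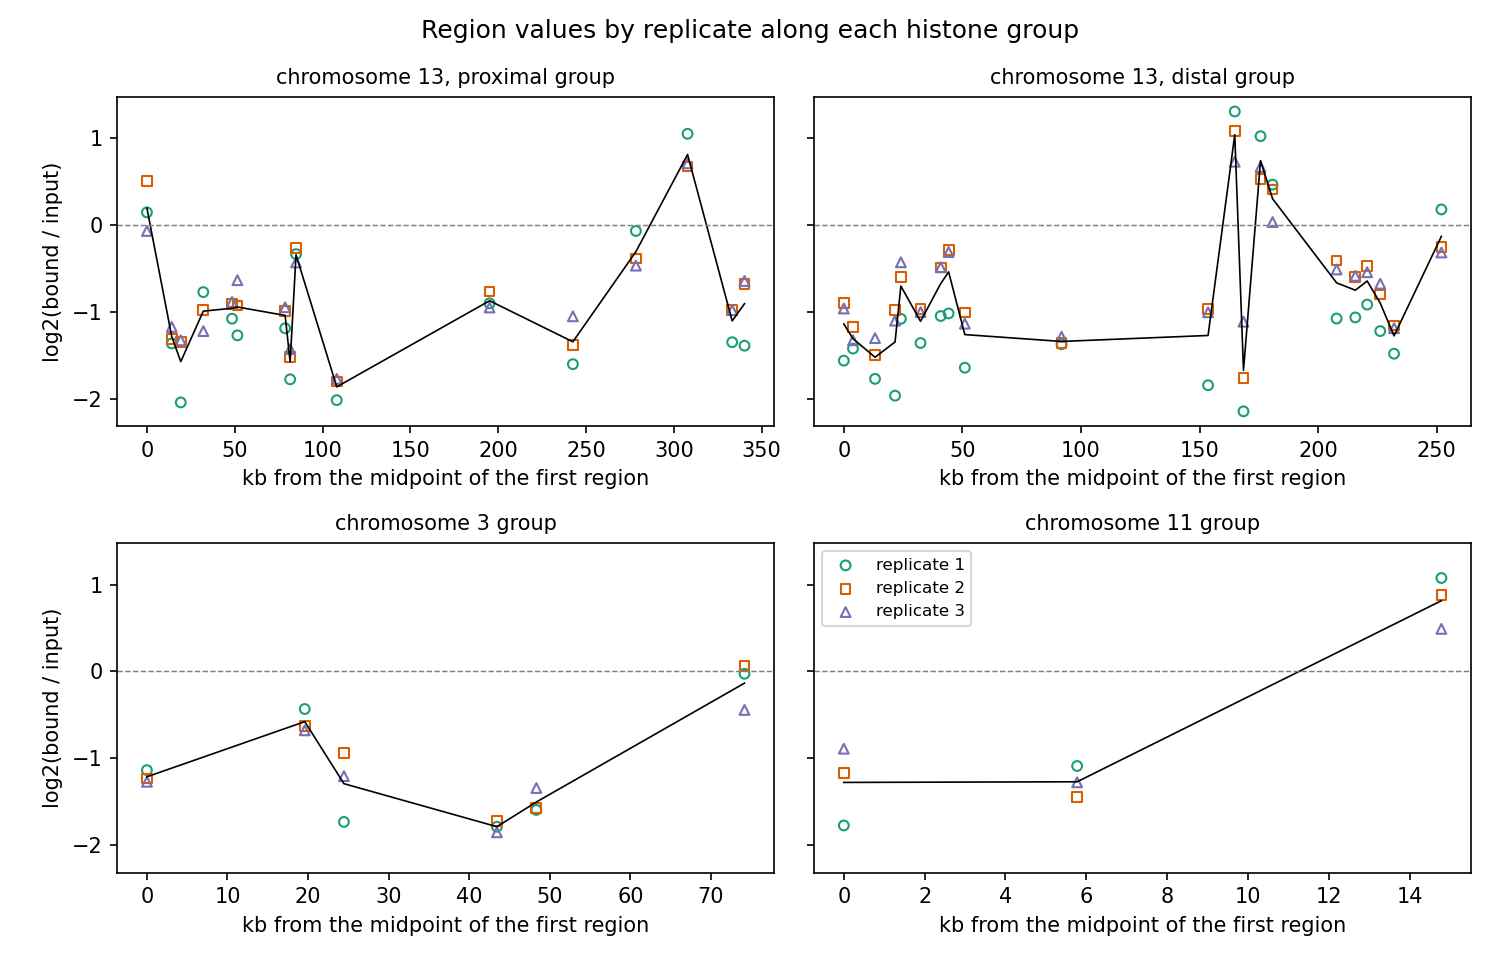
Log2 ratio of bound over input for every region and replicate (symbols) along each histone group, against the distance in kb of the region's midpoint from that of the first region. The line joins the means of the 3 arrays. Long runs below 0 are broken by 1 region above 0 in the proximal group and by several in the distal group, and the replicates share the pattern.

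The regions named from here on in the chromosome 13 groups were chosen after their values were seen, except where stated, as the rule that was to rank regions left none. That rule asked that each probe exceed background for bound and input DNA, on 1 array or more, which 12.1% of all regions met and none of the 46 histone regions did.
The lowest was chr13:21901017-21903814 in the proximal group, a region of 2798 bp and 28 probes. Its arrays read -2.01, -1.80 and -1.77 (-1.86 ± 0.13, 3.63-fold below the median probe, limma adjusted p = 2.26e-07), all far under 0. Input was bright there, above background in 74 of 84 measurements, and bound DNA in 35 of 84. Of the others, chr13:21875257-21876493 stood at -1.77, -1.52 and -1.43 and chr13:21812831-21814385 at -2.04, -1.35 and -1.33. Both are low on every array, the second with replicate 1 well below the others. In the distal group chr13:23634730-23636401 read -1.77, -1.49 and -1.30 (-1.52 ± 0.24) and chr13:23643348-23644646 read -1.96, -0.97 and -1.10 (-1.34 ± 0.54), where replicate 1 again set the spread. After the lowest region, in the order given, bound DNA was above background in 12 of 45, 6 of 39, 10 of 57 and 20 of 48 measurements. These ratios are thus limited.

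The 3 regions of each chromosome 13 group with the largest share of bound measurements below background were taken by rule, without order, since their values are limits. In the proximal group they were chr13:21872320-21873712, chr13:22133088-22136043 and chr13:21812831-21814385, with bound DNA above background in 2 of 45, 9 of 84 and 6 of 39 measurements. The first averaged -1.04 ± 0.13 and the second -0.90 ± 0.42. In the distal group they were chr13:23829455-23830802, chr13:23665479-23667684 and chr13:23848074-23848969, with 1 of 48, 2 of 60 and 2 of 30, and means of -0.66 ± 0.36, -0.54 ± 0.41 and -0.90 ± 0.29. These 3 were called lower (largest limma adjusted p 0.0077), but their input was above background in only 20 of 48, 24 of 60 and 13 of 30 measurements. So almost no bound DNA was seen, while the size of the depletion is limited by dim input. Without replicate 1 the region at chr13:23665479 fell short of the threshold, at -0.30, and that at chr13:23829455 did so with normexp (-0.068) and with loess (-0.22). In the interval the ranking rule named a single region, chr13:23101902-23102186, with 3 probes and arrays at -0.23, -0.52 and -0.47 (-0.41 ± 0.16, limma adjusted p = 0.0105). It fell short of the threshold under several alternatives, including without replicate 2 (-0.35).

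On chromosome 3, where all 6 regions are given, the lowest was chr3:96067033-96068441, with arrays at -1.79, -1.72 and -1.85 (-1.79 ± 0.06, limma adjusted p = 2.45e-07). Of its 16 probes 12 were lower and none lay above 0. Beside it chr3:96071370-96073891 read -1.59, -1.57 and -1.34 (-1.50 ± 0.14, 16 of 24 probes lower). The longest, chr3:96022606-96025994 with 42 probes over 3389 bp, read -1.14, -1.23 and -1.27 (-1.21 ± 0.07), and 28 of its probes were lower. Replicates lay close together in all 3 of these. More spread appeared at chr3:96048311-96049191, at -1.73, -0.94 and -1.20 (-1.29 ± 0.40). The mildest of the called regions was chr3:96042524-96045257, at -0.43, -0.62 and -0.68 (-0.58 ± 0.13, limma adjusted p = 0.00105), whose bound DNA was above background in 64 of 90 measurements. The last region toward the end of the group, chr3:96097718-96099215, read -0.03, 0.07 and -0.44 (-0.13 ± 0.27) and was not called, with arrays on both sides of 0.

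The chromosome 11 group split in its 3 regions. The first 2 were low: chr11:58761284-58762731 at -1.77, -1.17 and -0.89 (-1.28 ± 0.45) and chr11:58767016-58768544 at -1.09, -1.45 and -1.28 (-1.27 ± 0.18). The third, chr11:58776083-58777501, was high at 1.08, 0.88 and 0.49 (0.81 ± 0.30, limma adjusted p = 0.000213), with 6 of 15 probes higher and none lower. It lay 7.54 kb past its low neighbour, which it exceeded by 2.16, 2.32 and 1.77 on the 3 arrays (2.08 ± 0.29), so that the arrays of the 2 regions do not overlap.

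The other 3 higher regions lay in the chromosome 13 groups. The proximal group held 1, chr13:22101458-22102832, at 1.05, 0.68 and 0.71 (0.81 ± 0.21, limma adjusted p = 0.000121), with 5 of 14 probes higher and 11 above 0. It ended the long low run, 27.9 kb beyond the run's last region, and the next region was low again at -1.10. In the distal group chr13:23786505-23787897 was the highest of the 46 regions, with arrays at 1.31, 1.08 and 0.73 (1.04 ± 0.29, limma adjusted p = 3.11e-05). All 18 of its probes lay above 0 and 12 were higher. The second there, chr13:23797383-23798741, read 1.03, 0.54 and 0.67 (0.74 ± 0.25, limma adjusted p = 0.000314), with 7 of 13 probes higher. All 4 stood at the 86.3rd to 91.9th percentile of all regions.
With the mode of each array as the zero, which lies 0.64 to 0.81 above the median probe, only chr13:23786505-23787897 stayed past the threshold as higher, while over all regions the share of higher calls fell to 8.67% and that of lower calls rose to 76.8%.

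Between these 2 high regions lay 1 of the lowest. The region chr13:23790228-23791526 read -2.14, -1.76 and -1.11 (-1.67 ± 0.52), and 11 of its 16 probes were lower, 1 above 0. It began 2.33 kb after the end of the highest region, which exceeded it by 3.45, 2.84 and 1.84 (2.71 ± 0.81), and ended 5.86 kb before the other, which exceeded it by 3.17, 2.29 and 1.78 (2.41 ± 0.70). Bound DNA was above background in 37 of 54, 16 of 48 and 30 of 39 measurements of the 3 regions in order, and input in 38 of 54, 41 of 48 and 33 of 39. Input was thus bright in the low region too. Past the second high region, chr13:23802378-23803892 read 0.47, 0.41 and 0.04 (0.31 ± 0.23) and narrowly missed the threshold (limma adjusted p = 0.052), and it passed as higher without replicate 3 (0.44).

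**Figure D4:**
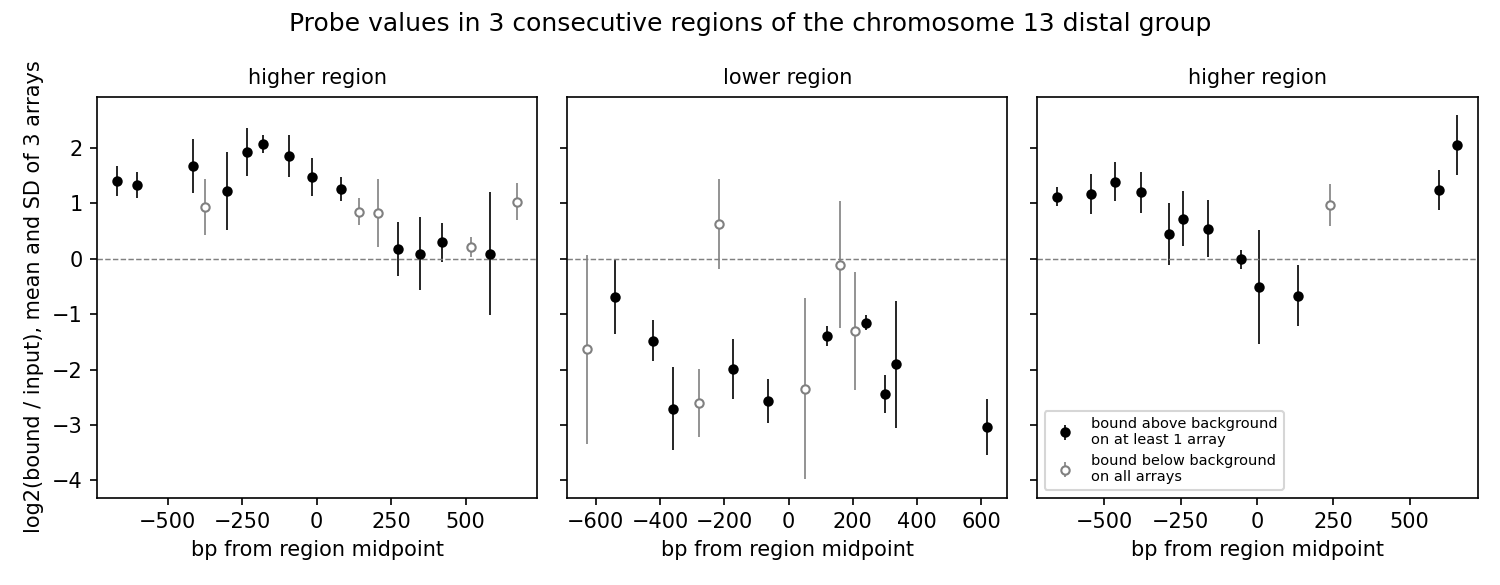
Log2 ratio of bound over input for the probes of 3 consecutive regions of the distal group, against distance in bp from each region's midpoint (mean and SD of 3 arrays). Open symbols are probes whose bound signal was below background on all arrays. The first region lies above 0 throughout, the middle one almost wholly below 0, and the last falls in its centre.

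Of the 4 regions not called, 3 stood at an end of their group. The first region of the proximal group, chr13:21793658-21795007, read 0.15, 0.51 and -0.07 (0.20 ± 0.29, limma adjusted p = 0.213), and with the interval as the zero it passed as higher, at 0.34. At the far end of the distal group, chr13:23874004-23874594 read 0.18, -0.25 and -0.31 (-0.13 ± 0.27), from 5 probes. The end region of chromosome 3 was given above. In each of these the arrays fell on both sides of 0.

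Longer regions were low without exception. All 18 histone regions over 1800 bp were lower, with a mean of -1.29, -0.98 and -0.96 on the arrays (-1.08 ± 0.19), whereas 54.2% of the 3081 other regions of that length were, with a mean of -0.29. Of the 28 regions up to 1800 bp, 20 were lower (71.4%) and the mean was -0.68 ± 0.10, against 36.1% of the others of that length. All 4 higher regions were among the shorter ones. The interval held no region over 1800 bp. With regions of 1000 to 1800 bp alone, the histone regions averaged -0.67 and the interval -0.10, a difference of -0.57.

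Inside the regions the histone groups lacked a common shape. The centre (probes within 200 bp of the midpoint) was compared with the edges (over 500 bp from it) in the 40 regions that had at least 2 probes in both. The mean difference was -0.07, 0.16 and 0.03 on the arrays (0.04 ± 0.11), around 0. Over all 21386 such regions the centre lay below the edges, by -0.23 ± 0.05, and the histone regions exceeded this by 0.28 ± 0.08 (exact permutation p = 0.25). In limma's test 11 of the 40 were higher in the centre (17.0% of all regions were) and 11 lower (32.4% of all). Without replicate 2 they fell to 6 and 7, and over all regions the shares fell too, to 10.6% and 23.4%. In the interval the mean was 0.15 ± 0.09, with 7 of 33 regions higher and 4 lower, so the absence of a low centre was not particular to the histone regions.

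**Figure D5:**
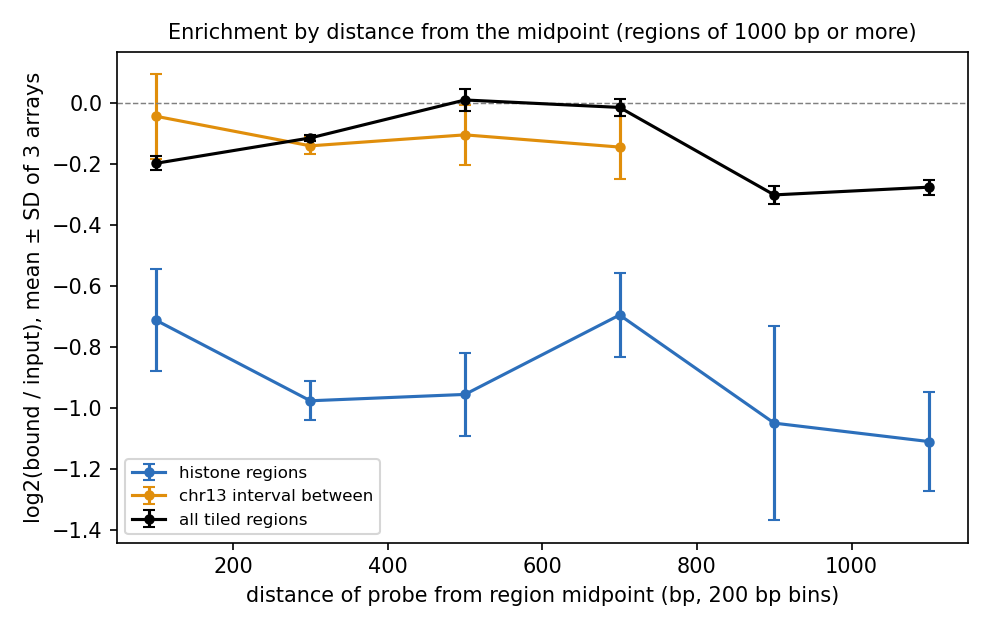
Mean log2 ratio of bound over input of probes by distance from the region's midpoint, in bins of 200 bp, for regions of 1000 bp or more (error bars, SD of 3 arrays). Histone regions stay between -1.11 and -0.70 in every bin, below all regions in each and below the interval in the 4 bins up to 800 bp where it has probes, and the outermost bins hold only probes of longer regions.

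By rule, the 3 lowest and the 3 highest values of centre minus edges were singled out among those called. The lowest was at chr13:22071919-22073512, the last region of the proximal run, with a centre at -1.68 ± 0.25 and edges at 0.22 ± 0.42 (centre minus edges -2.09, -1.82 and -1.78, or -1.90 ± 0.17, limma adjusted p = 9.01e-05). Its region mean of -0.30 thus joined a depleted core with mixed edges. Of its 3 centre probes 1 had bound signal below background on all arrays, and its 7 detected edge probes ran from -0.92 to 2.63. The high region chr13:23797383-23798741 had its centre at -0.16 ± 0.53 and its edges at 1.40 ± 0.31 (-1.56 ± 0.72), with bound DNA above background on at least 1 array at all of these probes. For chr13:23672289-23674537 they stood at -2.12 ± 0.31 and -0.84 ± 0.43 (-1.28 ± 0.48), but 10 of its 12 edge probes had bound signal below background on all arrays. The opposite shape was seen at the end region of chromosome 3, with a centre at 0.69 ± 0.21 and edges at -0.83 ± 0.27 (1.76, 1.21 and 1.59, or 1.52 ± 0.28, limma adjusted p = 0.000382), which its mean near 0 does not show. All 4 of its centre probes were detected in bound DNA on at least 1 array, and 2 of its 6 edge probes. In the distal group chr13:23643348-23644646 (1.45 ± 0.41) and chr13:23621704-23623088 (1.30 ± 0.68) were called too, but 3 of the 4 centre probes of each had bound signal below background on all arrays. The single detected centre probe was low in both, at -1.04 and -2.50, so the called difference rests on ratios of undetected bound DNA and does not show a raised centre. With the authors' deposited log2 values neither passed the threshold (0.30 and 0.10), nor did chr13:23672289-23674537 (-0.76).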

How the data were processed

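Bound and input DNA were measured together on each of 3 arrays. The files deposited by the authors hold intensities of 420288 spots each, from Agilent Feature Extraction 10.7.3.1. Per the file headers, processed intensities are background-subtracted and dye-normalised, a log10 ratio column gives red over green, and flags mark outlier spots and signals well above background. The authors' deposited matrix gives log2 bound over input spot medians (r at least 0.999), with column medians of -0.97 and normalization not given in the sources used here.

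For each spot the log2 ratio of bound to input processed signal was computed without outlier spots (10, 17 and 12) and control spots, then centred per array on the median probe (-0.19, -0.19 and -0.09 before). Repeat spots of 6208 probes were averaged, giving 409606 probes. Tests were limma 3.58.1 (R 4.3.3) 1-group fits against 0 with Benjamini-Hochberg adjustment at 0.05 over all regions, and exact sign-flip permutation over arrays (scipy 1.17.1). The region fit was tested on simulated data. The normexp alternative used spot medians.

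The members, lists and intervals were chosen with earlier results of these data known. Named were every region of chromosomes 3 and 11, in each chromosome 13 group the 5 highest and 5 lowest with every probe above background in both channels (none qualified) and the 3 with most bound DNA below background, in the interval the 2 highest and 2 lowest, and 3 shapes each way. Depth does not apply to arrays, and their number limits precision.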

Additional observations from a re-analysis of the deposited data

How the results depend on the processing

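The zero, background correction, loess, the authors' deposited log2 values, the scanner's log ratio, filters on dim probes, region rules, input brightness, array weights and each array left out were varied. The alternatives (regions of 1000 to 1800 bp, input filter with the median of probes, mean of all regions as zero) named here were chosen after seeing the data. Of 228 recomputed differences 221 kept their direction, and of 133 means 132 did. These counts include the mode as zero, which could turn none of them. Its shift cancels in a difference, and it lowers means that were already negative. With only 1 group there were no samples of another group to pair. Bound with input, interval with interval and centre with edges were compared within each array.

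All 4 histone groups minus the interval ranged from -0.90 to -0.26, the latter with normexp. The proximal minus the distal group turned to 0.062 with the authors' values, to 0.17 with input above background and to 0.17 with the median of probes as well. The distal group minus chromosome 3 turned to -0.056, -0.13 and -0.13 under the same 3. Chromosome 11 minus the interval turned to 0.091 with the authors' values. The interval's own mean turned to 0.15 with both channels above background. Leaving out 1 array moved the count of lower histone regions to 36 to 37 and that of higher ones to 4 to 5. Over all regions the shares were then 31.8% to 36.5% lower and 23.0% to 27.0% higher.

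The mode as zero left 1 higher and 42 lower histone regions, with 8.67% of all regions higher and 76.8% lower. Normexp left 0 at least 2-fold lower and a 4-group mean of -0.30. Both channels above background gave 8 higher and 21 lower of 30, with 51.6% of all regions higher and 22.7% lower. Centres higher than edges numbered 7 of 39 with the authors' values (14.7% of all regions) and 2 of 6 with both channels (27.8% of all). Without 1 array they numbered 6 to 13 of 40 (10.6% to 15.3% of all). Centres lower numbered 5 of 39 with the authors' values (31.2% of all regions) and 6 of 29 with input above background (40.7% of all). They numbered 3 of 6 with both channels (42.3% of all), and 7 to 9 of 40 without 1 array (23.4% to 28.2% of all).

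Regions near 0 turned sign. With the mode as zero chr13:21793658 stood at -0.52 and chr13:23802378 at -0.41. The region chr13:23874004 stood at 0.013 with the interval as zero and at 0.13 with the median of probes. The end region of chromosome 3 ranged from -0.23 to 0.020 without 1 array (0.020 without replicate 3), and stood at 0.0071 with the interval as zero, 0.029 with normexp, 0.060 with loess, 0.57 with both channels, 0.040 with the median of probes and 0.047 with input brightness removed. The centre minus edges of chr13:23672289 stood at 0.027 with input above background. Fewer probes remained under the filters, and otherwise the cause was not tested. Bound signal near background limits the depth of depletion that can be read.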
